A study of Mus musculus with 10 samples.

Results

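This report follows 39 genes of DNA replication and S phase through 10 expression arrays of sorted mouse lung epithelium. The genes were listed by name, for their roles in copying DNA, with no measured value in the rule, although earlier results of these data were known when the list was made. A gene was measured here when the platform annotation gave at least 1 probe set its symbol alone, and of several such probe sets the brightest on average was taken. That left 37 of the 39 genes, out of 22180 genes in all. The other members, Rfc4 and Ccne2, each shared their probe set with a neighbouring gene (Eif4a2 and Ints8), so no value is given for them.

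A cell copies its DNA once per division. In G1, the origin recognition complex with Cdc6 and Cdt1 loads the ring-shaped Mcm2 to Mcm7 helicase onto origins, and at the start of S phase Cdc45, the GINS complex and Mcm10 turn the ring into a moving helicase behind which polymerases alpha, delta and epsilon work. Many of these genes are targets of E2F transcription factors, which are released from pocket proteins when cells commit to divide. The alveolar epithelium still grows in the first days after birth, and type 2 alveolar epithelial cells (AEC2s), which make surfactant, are a source of new epithelium there.

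Both groups held 5 samples of cells labelled as AEC2s from lungs at postnatal day 4, on a mixed background of C57BL/6, 129S6 and CD-1, with no treatment recorded beyond the labelling. SP-C+ cells were sorted by YFP from SftpcCreERT2-R26REYFP mice after 24 h of lineage tracing, so that the surfactant protein C gene drove the label. Axin2+ cells were sorted as TdTomato+, EpCAM+, CD31- and CD45- cells from Axin2CreERT2-TdTomato mice, where a Wnt target gene drove the label and no AEC2 protein was part of the gate. Comparing them asks how cells labelled through Axin2 differ from cells labelled through the surfactant protein C gene. Line, reporter and gate all changed with the group and cannot be told apart from it. Whether a sample was 1 animal or a pool is not stated in the labels, so p-values measure the spread between these samples, which may be partly technical.

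The arrays correlated at 0.987 to 0.993 within SP-C+ and 0.993 to 0.995 within Axin2+, against 0.973 to 0.983 between the groups. All 15 AEC2 markers lay above the median gene in every SP-C+ array, and 3 of them were lower in Axin2+ arrays. Markers of other epithelial cells moved with the groups: 15 of 15 type 1 alveolar cell (AEC1) markers, 12 of 14 ciliated cell markers and 6 of 10 club cell markers were higher in Axin2+ arrays. In limma 0 of 14 leukocyte and 0 of 12 endothelial markers passed in either direction (1 and 2 at an unadjusted p under 0.05), and of 13 mesenchymal markers 1 was lower. Axin2 itself was lower in the Axin2+ group (mean 7.93, against 8.46 in SP-C+; adjusted p = 3.28e-04), so Axin2+ is used here as the name of a label.

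Replication genes were higher in Axin2+ arrays as a group, and mostly by modest amounts. Of the 37 measured members 27 rose and 0 fell at a Benjamini-Hochberg adjusted p under 0.05 in limma, while 8.61% of all genes rose and 8.95% fell; at an unadjusted p under 0.05, 29 members were higher and 1, E2f2, lower. The median log2 difference (Axin2+ minus SP-C+) was 0.68 over the members and -0.04 over all genes. Folds of the 27 ran from 1.22 to 3.54, and 9 of them were at least 2-fold (2.89% of all genes were called and at least 2-fold higher). In bulk RNA a larger share of cycling cells and more of a transcript per cycling cell cannot be told apart.

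**Figure D1:**
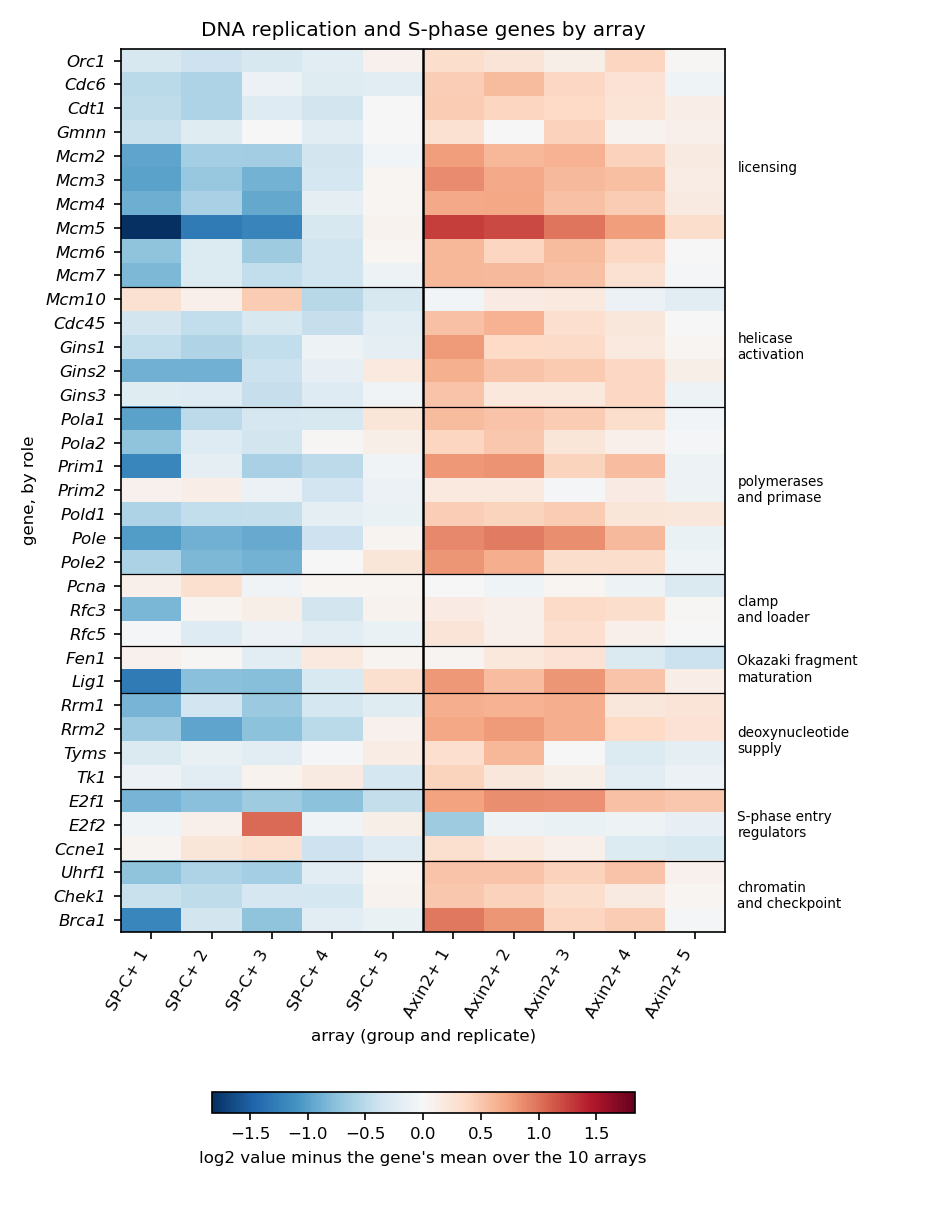
Heat map of the 37 measured members (rows, ordered by role) in the 10 arrays (columns), coloured by the log2 value minus the gene's mean over all arrays. Most rows turn from blue in SP-C+ arrays to red in Axin2+ arrays, with paler colours in SP-C+ replicate 5 and Axin2+ replicate 5, whereas Mcm10, Pcna, Fen1, Tk1, E2f2 and Ccne1 do not follow this pattern.

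The arrays of each group were not alike for these genes. The mean over the 37 members was 6.92, 7.11, 7.13, 7.26 and 7.48 in SP-C+ replicates 1 to 5 and 8.0, 7.96, 7.90, 7.75 and 7.51 in Axin2+ replicates 1 to 5. The groups thus met at their edges, where SP-C+ replicate 5 and Axin2+ replicate 5 were nearly level. SP-C+ replicate 5 was the highest of its group for 26 members (16.4% of all genes), and Axin2+ replicate 5 was the lowest of its group for 32 (19.2% of all genes). Axin2+ replicates 1 to 4 lay above every SP-C+ array in 27 of the 37 members, an order found in 8.21% of all genes. These were the same 27 that rose, and a call itself favours this order, so the order adds no separate evidence. In 17 members all Axin2+ arrays lay above all SP-C+ arrays (7.38% of all genes), and in the other 10 that rose SP-C+ replicate 5 was above Axin2+ replicate 5.

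The count was smaller without SP-C+ replicates 1, 2 and 3. Without them 12 members rose (6.78% of all genes did), with a median difference of 0.47. Without replicates 4 and 5, 26 rose (9.57% of all genes) at a median of 0.82. The 12 were Cdt1, Mcm2, Mcm3, Mcm4, Mcm5, Mcm7, Cdc45, Pold1, Rrm1, Rrm2, E2f1 and Uhrf1, with differences of 0.50 to 1.29. By role they were 6 of 10 licensing genes, 1 of 5 helicase activators, 1 of 7 polymerase genes, both ribonucleotide reductase genes, E2f1 and Uhrf1. Both fits were added after the data had been seen. Replicates 1, 2 and 3 had the lowest member means of their group, so a smaller mean difference without them was built into the choice. That fit also kept only SP-C+ replicates 4 and 5, so a call can be lost through fewer arrays alone. Calls lost or kept in this fit, here and below, are descriptive only. Rfc5 lost its limma call there although its difference went from 0.28 to 0.30 (SE 0.08 to 0.10, adjusted p = 0.0942).

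Markers of other cells showed other patterns across the arrays. The mean of the 14 ciliated cell markers lay between 5.63 and 5.80 in SP-C+ arrays and between 7.75 and 8.13 in Axin2+ arrays, and that of the 15 AEC1 markers between 9.08 and 9.57 and between 11.44 and 11.82. In SP-C+ arrays 2 of the 14 ciliated markers and 13 of the 15 AEC1 markers lay above the median gene throughout. Endothelial markers were highest in SP-C+ replicate 1, with a mean of 7.58 against 6.49 to 6.96 in replicates 2 to 5. Leukocyte markers also stood highest there (5.69 against 5.28 to 5.42). So did mesenchymal (6.17 against 5.66 to 5.83) and AEC1 markers (9.57 against 9.08 to 9.24), but not ciliated cell markers (5.63 against 5.64 to 5.80). This array was the lowest of its group for 20 of the 37 members and for 5164 of all 22180 genes. The part of these cells in the replication values was not tested.

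**Figure D2:**
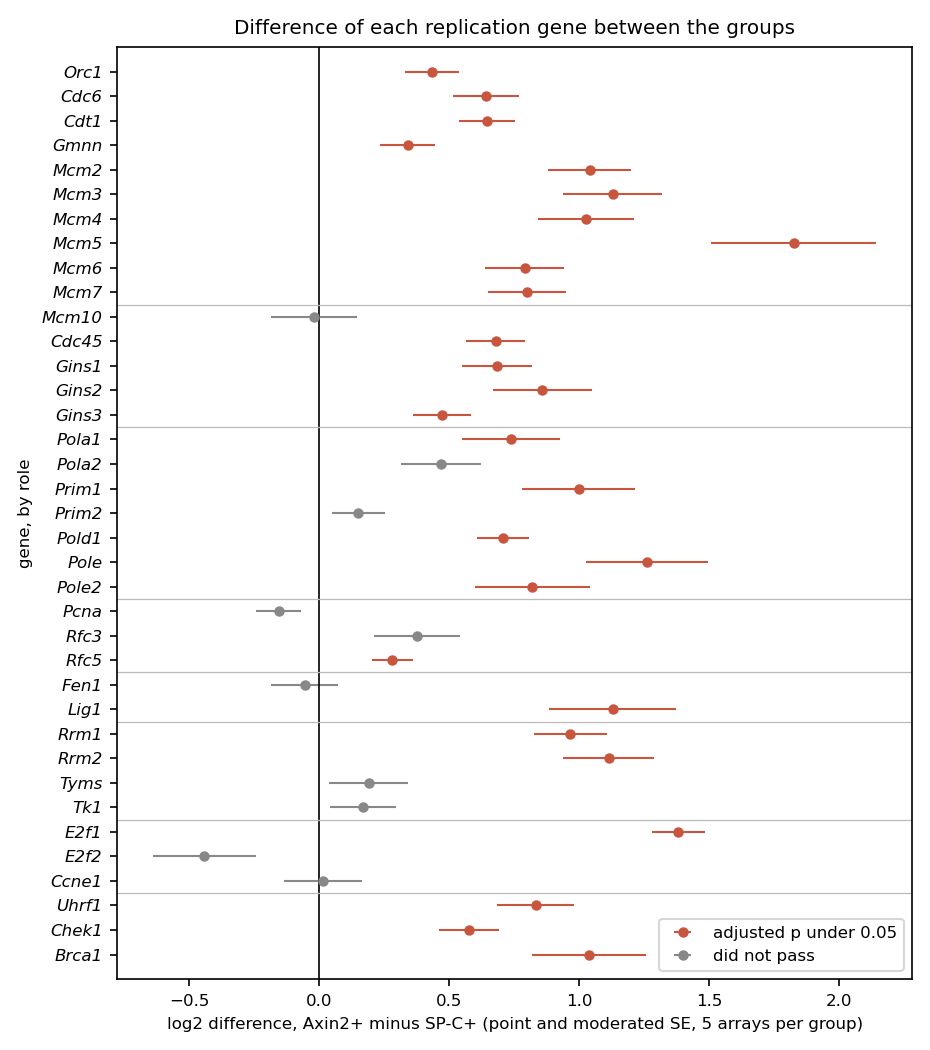
Log2 difference, Axin2+ minus SP-C+, for each of the 37 members with its moderated standard error (5 arrays per group), ordered by role. The 27 genes that passed are red and all lie to the right of 0, led by Mcm5 at 1.83, and the 10 that did not pass are grey and lie between -0.44 and 0.47.

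Promoters were examined because so many members moved together. In the RefSeq table (build GRCm38.p6; 250 bases before to 50 after a start) 32 of the 39 genes had a window, 38 windows in all. They were searched on both strands for the E2F octamers TTTGGCGC, TTTCGCGC, TTTCCCGC and TTTGCCGC, whose matches can overlap. At least 1 was found for 15 of the 32 genes (46.9%), against 704 of all 27025 genes in the table (2.61%). The list was made by role and many of these genes are known E2F targets, so this share does not depend on the array values. What moved the members together was not tested. The share was 13 of 22 among members that rose and 2 of 9 among those that did not pass, with no test made of this difference. Other replication genes had 9 of 41, and 15 genes of polymerases, ligases and nucleotide enzymes outside chromosomal replication had 0. Mitosis genes had 1 of 22.

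The mitosis genes instead carried the CHR hexamer TTTGAA, an element through which the DREAM complex acts on genes of the late cell cycle. It was in 15 of their 22 windows, compared with 5 of 38 windows of the members and 17.9% of all windows. A match is only a run of letters, and these windows were rich in G and C (median 57.3% in the members, 52.7% in all). Each E2F octamer holds the letters CG, whose median count per window was 21 in the members and 7 in all. It was 24.5 in the mitosis genes and 22.5 in the enzymes outside chromosomal replication. The shares were not adjusted for this. Of the 37 windows of measured members, 21 began at the outermost start that RefSeq annotates. The window of E2f1 held no octamer, but it began 466 bases inside the outermost start.

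**Figure D3:**
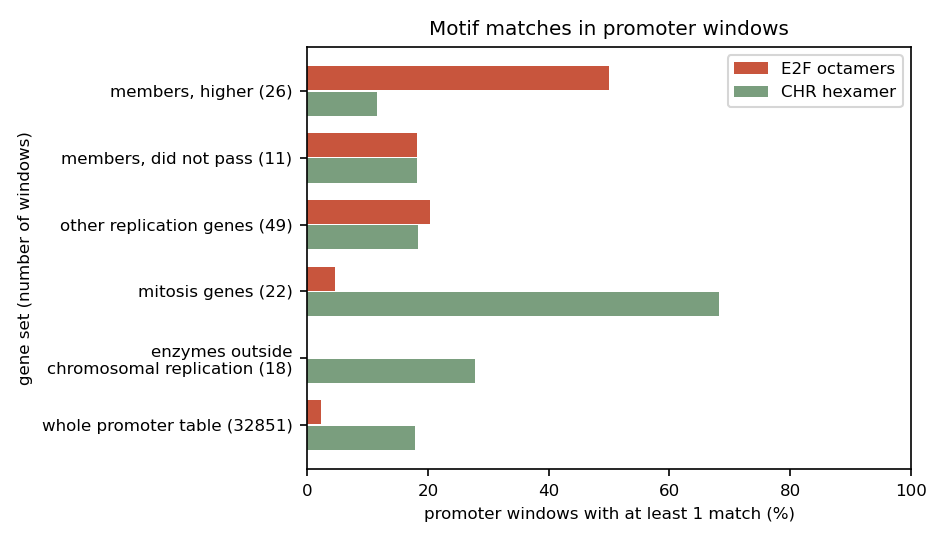
Share of promoter windows with at least 1 match to an E2F octamer (red) or to the CHR hexamer (green), by gene set, with the number of windows in brackets. E2F matches are in 13 of the 26 windows of members that rose and 2.26% of the whole table, whereas CHR matches peak among mitosis genes at 68.2%.

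The stretches below show the matches that lay upstream of the outermost start, with up to 25 bases on each side and cut at that start, 5′ to 3′ on the gene's own strand and the octamers in capitals. They are from Mcm5 (chr8:75109331-75109392, + strand), Mcm6 (chr1:128359720-128359840, - strand), Gins3 (chr8:95633493-95633550, + strand) and Rfc3 (chr5:151651209-151651243, - strand).
Mcm5: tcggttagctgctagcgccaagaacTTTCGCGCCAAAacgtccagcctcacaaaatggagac
Mcm6: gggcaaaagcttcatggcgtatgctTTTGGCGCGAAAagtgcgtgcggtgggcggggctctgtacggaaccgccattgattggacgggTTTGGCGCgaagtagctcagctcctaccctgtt
Gins3: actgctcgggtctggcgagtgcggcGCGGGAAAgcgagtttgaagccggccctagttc
Rfc3: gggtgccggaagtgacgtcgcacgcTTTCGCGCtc
In Mcm5 and Mcm6 octamers of both strands overlap into 12 bases, and the 12 bases of Mcm6 are the reverse complement of those of Mcm5. This word, TTTCGCGCCAAA on either strand, occurred in 4 of 32851 windows. Mcm5, Mcm6 and Gins3 rose, and Rfc3 did not pass. The Rfc3 window held 1 more octamer, at the start itself, which is not shown.

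All 10 licensing genes rose, against 8.61% of all genes, although Gmnn lost its call 7 times of 10 when single arrays were dropped. Mcm5 measured 6.48, 7.01, 7.11, 8.02 and 8.38 in SP-C+ replicates 1 to 5 and 9.58, 9.53, 9.30, 9.08 and 8.64 in Axin2+ replicates 1 to 5. The groups did not overlap, but SP-C+ arrays alone spanned 1.91 log2 units. The difference was 1.83 ± 0.32 SE (adjusted p = 0.00138), the largest of the 37, and 1.02 ± 0.24 without SP-C+ replicates 1, 2 and 3 (adjusted p = 0.0222). Mcm3 measured 6.27, 6.56, 6.38, 6.93 and 7.29 in SP-C+ and 8.12, 7.94, 7.84, 7.80 and 7.38 in Axin2+ arrays, so that the nearest arrays of the groups, both replicate 5, were 0.09 apart. Mcm2 measured 7.30, 7.64, 7.62, 7.93 and 8.22 against 9.03, 8.87, 8.90, 8.69 and 8.43, with the same pair of arrays nearest.

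The other subunits of the ring differed by similar amounts. Differences were 1.04 for Mcm2, 1.13 for Mcm3, 1.03 for Mcm4, 0.79 for Mcm6 and 0.80 for Mcm7, with adjusted p-values of 0.00284 or lower. Mcm4 ran from 7.98 to 8.95 in SP-C+ and from 9.08 to 9.62 in Axin2+ arrays, and Mcm7 from 7.73 to 8.46 and from 8.54 to 9.17. For Mcm6 the groups overlapped by the width of SP-C+ replicate 5 (8.55) over Axin2+ replicate 5 (8.53). With SP-C+ replicates 1, 2 and 3 left out Mcm6 missed the threshold (0.56 ± 0.17, adjusted p = 0.0611).

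The loaders also rose, by 0.43 to 0.65 log2 units. Cdc6, which brings the helicase to origins, measured 6.35, 6.28, 6.73, 6.62 and 6.63 in SP-C+ and 7.29, 7.43, 7.22, 7.11 and 6.77 in Axin2+ arrays, a difference of 0.64 ± 0.13. Cdt1, its partner in loading, differed by 0.65 ± 0.11 (7.27 to 7.83 in SP-C+, 7.96 to 8.30 in Axin2+). Neither gene's groups overlapped. Orc1, the origin subunit that is made anew each cycle, was at 4.99 to 5.45 and 5.39 to 5.77, with 1 SP-C+ array (replicate 5) inside the Axin2+ range and a difference of 0.43 ± 0.10 (adjusted p = 0.0118). With the same arrays left out Cdc6 and Orc1 missed it too (adjusted p = 0.0538 and 0.219).

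Gmnn encodes geminin, which binds Cdt1 and blocks a further round of loading. Its values were 5.75, 5.94, 6.15, 5.96 and 6.16 in SP-C+ and 6.44, 6.17, 6.59, 6.23 and 6.25 in Axin2+ arrays. The groups touched without overlapping, and the difference of 0.34 ± 0.11 was the second smallest of those called (adjusted p = 0.0415). Leaving out single arrays cost Gmnn its call 7 times of 10, and the adjusted p reached 0.106 when Axin2+ replicate 3 was dropped. Cdt1 rose more than Gmnn by 0.30 (exact permutation test, two-sided p = 0.0238, adjusted p = 0.0340 over 10 pairs of partner genes). All of these pairs were chosen after the data were seen, so their p-values, here and below, are descriptive only.

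Of the genes that activate the helicase 4 of 5 rose (8.61% of all genes did). Cdc45, which joins the ring at the fork, measured 6.43, 6.31, 6.47, 6.35 and 6.58 in SP-C+ and 7.30, 7.41, 7.08, 6.98 and 6.77 in Axin2+ arrays. SP-C+ arrays were close together for this gene (SD 0.10, n = 5), and the difference was 0.68 ± 0.11 (adjusted p = 0.00114). The GINS subunit genes rose together, Gins1 by 0.68 ± 0.14, Gins2 by 0.86 ± 0.19 and Gins3, whose upstream octamer is shown above, by 0.47 ± 0.11. Gins2 measured 6.12, 6.12, 6.61, 6.85 and 7.19 in SP-C+ and 7.66, 7.53, 7.49, 7.38 and 7.12 in Axin2+ arrays, the replicate 5 arrays crossing. When SP-C+ replicates 1, 2 and 3 were dropped, 0 of the GINS genes passed in limma (adjusted p = 0.110 to 0.140, differences 0.39 to 0.47).

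Mcm10, a fork protein that is no part of the ring despite its name, did not pass. Its values were 7.14, 6.95, 7.32, 6.35 and 6.56 in SP-C+ and 6.80, 7.0, 7.03, 6.75 and 6.65 in Axin2+ arrays. Replicates 4 and 5 were the low ones within SP-C+ and, by less, within Axin2+. Every Axin2+ array lay within the SP-C+ range. The difference of -0.02 ± 0.17 was 0.39 ± 0.13 without SP-C+ replicates 1, 2 and 3 and -0.29 ± 0.12 without replicates 4 and 5, and passed in neither (adjusted p = 0.0801 and 0.119).

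**Figure D4:**
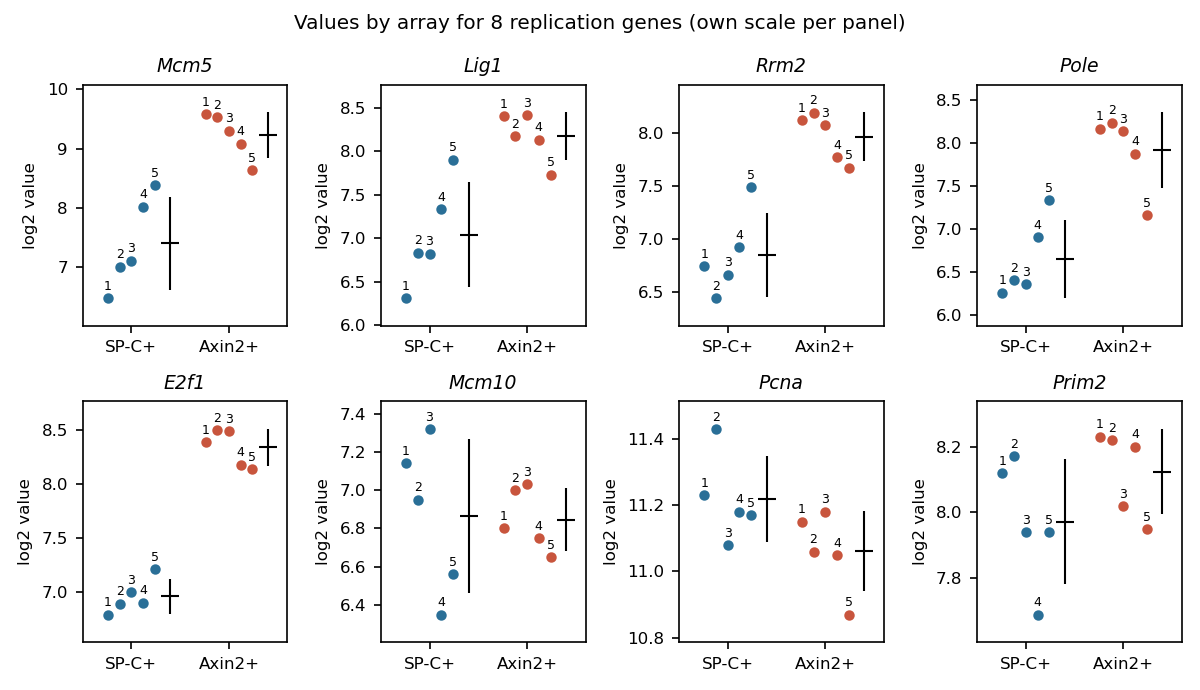
Log2 value of 8 members in each array (points, numbered by replicate) with the mean and SD of each group of 5 (black bars), each panel on its own scale. Mcm5, Lig1, Rrm2 and Pole are high in Axin2+ arrays and spread widely within SP-C+, E2f1 is tightly grouped on both sides of a wide gap, and the groups overlap for Mcm10, Pcna and Prim2.

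Among polymerase and primase genes 5 of 7 rose (8.61% of all genes did). Pole, the catalytic subunit of polymerase epsilon, which extends the leading strand, measured 6.26, 6.40, 6.36, 6.90 and 7.33 in SP-C+ and 8.16, 8.23, 8.13, 7.87 and 7.16 in Axin2+ arrays. Only Axin2+ replicate 5 fell within the SP-C+ range, and the difference was 1.26 ± 0.23 (adjusted p = 0.00223). A dimmer Pole probe set, not used here, differed by 0.04 (means 5.85 and 5.82), so the probe sets of this gene disagree, and their average differed by 0.65. Pole2, a smaller subunit, rose by 0.82 ± 0.22 (adjusted p = 0.0217), and lost its call 4 times of 10 when single arrays were dropped (0.0563 with Axin2+ replicate 1 out). Pold1, the catalytic subunit of lagging-strand polymerase delta, was at 7.16 to 7.60 in SP-C+ and 7.94 to 8.19 in Axin2+ arrays (0.71 ± 0.10, adjusted p = 3.11e-04).

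Polymerase alpha and primase act as 1 complex that starts each new strand, and its subunit genes differed from each other. Prim1, the catalytic primase subunit, measured 5.58, 6.61, 6.17, 6.29 and 6.70 in SP-C+ and 7.57, 7.59, 7.18, 7.34 and 6.67 in Axin2+ arrays, a difference of 1.0 ± 0.22 (adjusted p = 0.00615). Prim2, the large primase subunit, measured 8.12, 8.17, 7.94, 7.69 and 7.94 against 8.23, 8.22, 8.02, 8.20 and 7.95, with wide overlap and a difference of 0.15 ± 0.10 (adjusted p = 0.366). Prim1 rose more than Prim2 by 0.85 (exact permutation p = 0.0159, adjusted p = 0.0265 over the 10 pairs). Pola1, the polymerase itself, rose by 0.74 ± 0.19 (adjusted p = 0.0160), and its accessory subunit gene Pola2 was at 0.47 ± 0.15 (adjusted p = 0.0531), just short of the threshold. Pola2 passed in 3 of the 10 fits without 1 array, with an adjusted p of 0.0252 without SP-C+ replicate 5, 0.0402 without SP-C+ replicate 4 and 0.0423 without Axin2+ replicate 5. Dropping SP-C+ replicates 1, 2 and 3 ended the calls of Prim1, Pole, Pola1 and Pole2 (adjusted p = 0.0636, 0.0920, 0.214 and 0.413). For Pola1 and Pola2 the gap of 0.27 did not pass over the 10 pairs (exact permutation p = 0.0476, adjusted p = 0.0595).

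The sliding clamp did not follow the ring. Pcna, which tethers polymerases to DNA, measured 11.23, 11.43, 11.08, 11.18 and 11.17 in SP-C+ and 11.15, 11.06, 11.18, 11.05 and 10.87 in Axin2+ arrays. The groups overlapped, and the difference was -0.15 ± 0.09 (adjusted p = 0.269). The probe set ranked at the 97.5th percentile of all genes, and the RefSeq gene table lists the pseudogenes Pcna-ps1 and Pcna-ps2, whose share in this signal was not tested.

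Among the genes of the clamp loader Rfc5 rose by 0.28 ± 0.08 (adjusted p = 0.0265), the smallest called difference, at 8.25 to 8.45 in SP-C+ and 8.48 to 8.79 in Axin2+ arrays. Its call was lost 4 times of 10 when single arrays were dropped (0.0746 with Axin2+ replicate 3 out) and with each array centred on its median (adjusted p = 0.0933). Rfc3 was at 0.38 ± 0.16 (adjusted p = 0.148). Its SP-C+ replicate 1, at 6.39, lay well below the 6.88 to 7.33 of the other SP-C+ arrays.

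Lagging-strand fragments are trimmed by Fen1 and sealed by Lig1. Lig1 measured 6.31, 6.83, 6.82, 7.33 and 7.90 in SP-C+ and 8.40, 8.17, 8.41, 8.13 and 7.73 in Axin2+ arrays. Only the replicate 5 arrays crossed, and the difference was 1.13 ± 0.24 (adjusted p = 0.00610; 0.55 ± 0.21 and 0.120 without SP-C+ replicates 1, 2 and 3). Fen1 was at 6.07 to 6.44 in SP-C+ and 5.86 to 6.53 in Axin2+ arrays, a difference of -0.06 ± 0.13 (adjusted p = 0.827). Its other, dimmer probe set was 0.47 higher in Axin2+ arrays (6.04 ± 0.32 SD against 5.57 ± 0.24), so Fen1 is uncertain. Lig1 rose more than Fen1 by 1.19, and more than Lig3, a DNA ligase of repair and of mitochondria, by 1.24. Both contrasts separated the arrays fully (exact permutation p = 0.00794, the smallest possible for these arrays, adjusted p = 0.0159). The pairs were picked with the values known, and the contrast with Fen1 used only its brighter probe set.

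Deoxynucleotide supply split. The ribonucleotide reductase genes Rrm1 and Rrm2, which make the building blocks of DNA, rose. Rrm2, the subunit made in S phase, measured 6.74, 6.44, 6.66, 6.92 and 7.49 in SP-C+ and 8.12, 8.19, 8.07, 7.77 and 7.67 in Axin2+ arrays (1.11 ± 0.18, adjusted p = 6.62e-04). Rrm1 measured 8.08, 8.58, 8.25, 8.61 and 8.71 against 9.59, 9.57, 9.59, 9.14 and 9.17 (0.97 ± 0.14, adjusted p = 3.61e-04). A second and much dimmer Rrm2 probe set differed by 0.08 (means 2.99 and 2.91), and the average of both Rrm2 probe sets by 0.60. Neither gene's groups overlapped, and both passed without SP-C+ replicates 1, 2 and 3 (0.76 and 0.75). Rrm2b, the form of the small subunit used outside S phase, was at 8.66 to 8.92 in SP-C+ and 8.69 to 8.86 in Axin2+ arrays (-0.03 ± 0.08, adjusted p = 0.856), and Rrm2 exceeded it by 1.14 in its change (exact permutation p = 0.00794, adjusted p = 0.0159).

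The thymidine enzymes did not pass. Tyms, thymidylate synthase, was at 8.47 to 8.88 in SP-C+ and 8.48 to 9.34 in Axin2+ arrays (0.19 ± 0.15, adjusted p = 0.455), and a pseudogene, Tyms-ps, is listed beside it. Tk1, the thymidine kinase of S phase, measured 7.89, 7.79, 8.06, 8.16 and 7.67 in SP-C+ and 8.40, 8.20, 8.11, 7.81 and 7.89 in Axin2+ arrays. Its groups overlapped across most of their range (0.17 ± 0.13, adjusted p = 0.423), and its change did not differ detectably from that of mitochondrial Tk2 (0.33, exact permutation p = 0.119).

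E2f1 had the smallest adjusted p of the 37. This activator of S-phase genes measured 6.79, 6.89, 7.0, 6.90 and 7.21 in SP-C+ and 8.39, 8.50, 8.49, 8.18 and 8.14 in Axin2+ arrays. The lowest Axin2+ array lay 0.93 above the highest SP-C+ array, and both groups were tight (SD 0.16 and 0.17, n = 5 each). The difference was 1.38 ± 0.10 (2.61-fold, adjusted p = 7.96e-07), and it was 1.29 ± 0.14 without SP-C+ replicates 1, 2 and 3 and 1.45 ± 0.11 without replicates 4 and 5 (adjusted p = 2.91e-04 and 7.13e-06).

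E2f2, a second activator, went the other way without passing. Its values were 7.40, 7.56, 8.50, 7.40 and 7.57 in SP-C+ and 6.82, 7.38, 7.35, 7.37 and 7.31 in Axin2+ arrays. Every Axin2+ array lay below every SP-C+ array, but the nearest pair (7.38 and 7.40) almost touched, and the difference of -0.44 ± 0.20 did not pass (adjusted p = 0.155). SP-C+ replicate 3 (8.50) and Axin2+ replicate 1 (6.82) stood apart from their groups. With 1 array left out the difference ran from -0.51 to -0.24. E2f1 exceeded E2f2 by 1.82 in its change (exact permutation p = 0.00794, adjusted p = 0.0159). Ccne1, cyclin E1, which opens S phase with Cdk2, measured 7.06, 7.22, 7.30, 6.63 and 6.77 in SP-C+ and 7.30, 7.18, 7.09, 6.76 and 6.73 in Axin2+ arrays, a difference of 0.01 ± 0.15. Like Mcm10 it was low in SP-C+ replicates 4 and 5. Both genes were also lowest in Axin2+ replicates 4 and 5 (6.76 and 6.73 for Ccne1, 6.75 and 6.65 for Mcm10).

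The 3 chromatin and checkpoint genes rose (8.61% of all genes did). Uhrf1, which carries DNA methylation across the fork, measured 6.60, 6.77, 6.71, 7.13 and 7.37 in SP-C+ and 7.86, 7.86, 7.76, 7.86 and 7.41 in Axin2+ arrays (0.83 ± 0.15, adjusted p = 0.00156). The groups came within 0.04 of each other at replicate 5. Chek1, the kinase that guards stalled forks, rose by 0.58 ± 0.12 (adjusted p = 0.00354). Brca1, which repairs them, measured 4.26, 5.11, 4.71, 5.24 and 5.33 in SP-C+ and 6.42, 6.26, 5.84, 5.91 and 5.42 in Axin2+ arrays (1.04 ± 0.22, adjusted p = 0.00531). Chek1 and Brca1 lost their calls when SP-C+ replicates 1, 2 and 3 were dropped (adjusted p = 0.101 and 0.0904).

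A longer list of other replication genes was counted the same way. Of 47 measured, 16 rose and 2 fell, with a median of 0.22, while 8.61% of all genes rose and 8.95% fell. Ticrr, which helps to load Cdc45, rose by 1.16 ± 0.23, Dna2, a flap nuclease, by 0.95 ± 0.14, and Chaf1a, a histone chaperone at the fork, by 0.74 ± 0.18. The falls were Orc6 (-0.46 ± 0.13) and Shmt1, a folate enzyme of thymidylate synthesis (-0.31 ± 0.10), and these calls were lost 6 and 9 times of 10 when single arrays were dropped (adjusted p as high as 0.0702 and 0.109). Ticrr and Chaf1a lost theirs when SP-C+ replicates 1, 2 and 3 were dropped (adjusted p = 0.121 and 0.262). Rises numbered 8 without Axin2+ replicate 1 or 3, 10 without SP-C+ replicate 1, and 2 without SP-C+ replicates 1, 2 and 3. They numbered 9 with each array centred on its median or with p adjusted over all probe sets.

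Relatives of E2f1 moved in part. Of 15 E2F family, pocket protein and DREAM complex genes 4 rose and 1 fell (8.61% and 8.95% of all genes). E2f8 and E2f7, repressors that are themselves E2F targets, rose by 1.37 ± 0.30 and 0.69 ± 0.14, and Rbl1, the pocket protein p107, by 0.90 ± 0.18. Rbl2, the pocket protein p130 of resting cells, measured 9.35, 9.46, 9.33, 9.54 and 9.36 in SP-C+ and 9.06, 8.92, 8.90, 9.08 and 9.06 in Axin2+ arrays. Its groups were well apart (-0.40 ± 0.07, adjusted p = 0.00218). E2f8 lost its call when SP-C+ replicates 1, 2 and 3 were dropped (0.60, adjusted p = 0.168).

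Genes of S-phase kinases and protein turnover also split, with 6 of 16 higher and 3 lower (8.61% and 8.95% of all genes). Dtl, which marks Cdt1 for destruction, rose by 1.67 ± 0.42, Ccna2, cyclin A2, by 1.40 ± 0.41 and Ccna1, cyclin A1, by 0.96 ± 0.14. Ccna2 lost its call 6 times of 10 when single arrays were dropped (0.0820 with SP-C+ replicate 2 out), and Dtl and Ccna2 both lost it with SP-C+ replicates 1, 2 and 3 out (adjusted p = 0.344 and 0.548). The lower genes were Cdkn1a, the CDK inhibitor p21 (-0.53 ± 0.16), Cul4a (-0.36 ± 0.08) and Wee1 (-0.34 ± 0.08). Cdkn1a lost its call 7 times of 10 (0.0856 with Axin2+ replicate 2 out), and all 3 lower genes lost it with SP-C+ replicates 1, 2 and 3 out (adjusted p = 0.103 to 0.511).

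Mitosis genes and the 37 members were set side by side, since both report on cycling cells. Of 24 mitosis genes 13 rose and 0 fell in limma, against 8.61% and 8.95% of all genes (20 and 0 at an unadjusted p under 0.05). Their median was 0.82, and Cdk1, Mki67 and Top2a led at 1.96 ± 0.46, 1.76 ± 0.41 and 1.72 ± 0.40. They spread more within the groups, with a median SD of 0.49 in SP-C+ arrays against 0.29 for the members and 0.17 for all genes. SP-C+ replicates 4 and 5 both lay above replicates 1, 2 and 3 for 23 of the 24 mitosis genes and for 18 of the 37 members (14.4% of all genes). Without replicates 1, 2 and 3, 1 of the 24 rose, where 12 of the 37 members did (6.78% of all genes rose). Without replicates 4 and 5, 22 of the 24 rose (9.57% of all genes). A wider spread makes a call harder to reach, so the counts of these lists are not like for like. Both splits were chosen with the values known, so these counts are descriptive only. Leaving out 1 array gave 7 to 20 rises among the mitosis genes, with 7 without SP-C+ replicate 2 and 20 without Axin2+ replicate 5.

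Enzymes with like chemistry outside chromosomal replication served as a contrast. Of 19 polymerases, ligases and nucleotide enzymes of repair and of mitochondria 2 rose and 0 fell in limma, against 8.61% and 8.95% of all genes. At an unadjusted p under 0.05 it was 2 and 3. The median was -0.04, the same to 2 decimals as over all genes. Their mean lay between 7.98 and 8.15 in SP-C+ arrays and between 8.0 and 8.09 in Axin2+ arrays.

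**Figure D5:**
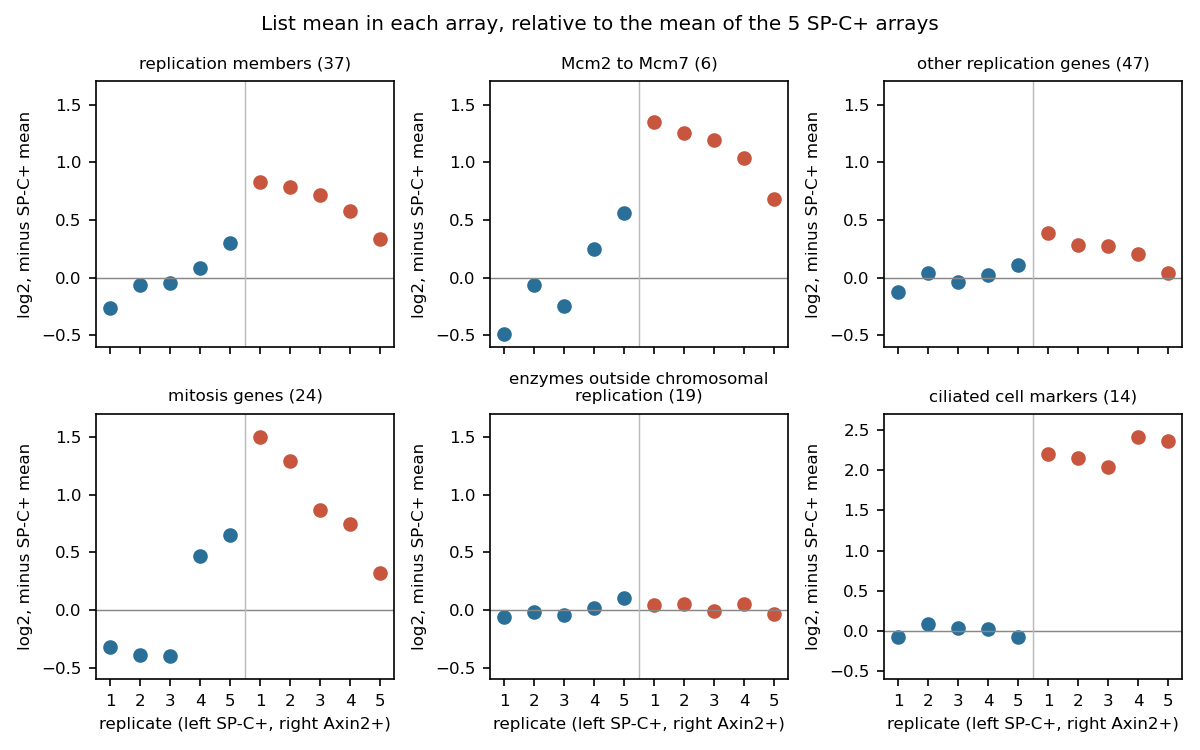
Mean log2 value of 6 gene lists in each array, relative to the mean of the 5 SP-C+ arrays (blue points SP-C+, red points Axin2+, number of genes in brackets; the ciliated panel has a longer axis). Replication members, Mcm2 to Mcm7 and mitosis genes spread within both groups and come close at the replicate 5 arrays, enzymes outside chromosomal replication stay near 0, and ciliated cell markers form separate levels.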

How the data were processed

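RNA from 10 samples, 5 per group, was measured on Affymetrix arrays; cDNA was primed at the poly(A) tail from 100 ng of RNA, amplified in vitro and biotinylated, per the labels' protocols. The deposited log2 values of 41345 probe sets had been normalized by the authors, with oligo, RMA and limma among the tools in the submitters' processing notes, without versions. The log base was inferred from the range of the values (1.69 to 14.16). Background signal adds to every probe, so dim genes are understated, and the number of arrays limits the precision. Symbols came from the platform annotation: 23521 probe sets had 1 symbol, 1814 several and 16010 none. Groups came from the titles.

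The groups were compared over 22180 genes with limma 3.58.1 in R 4.3.3 (lmFit, eBayes, no covariates, two-sided, Benjamini-Hochberg over all genes); errors are moderated standard errors unless SD is written. Exact permutation tests compared 10 pairs of partner genes, chosen after the data were seen. On simulated data for this comparison (22180 genes, 200 changed) the fit recovered 56% of changes of 0.5, 94% of 1 and 100% of 2 or 3, and 6.91% of its calls were false. The simulated noise was independent between genes, so it held no shift that genes share within an array. In the real data 3894 genes were called, so these rates may not hold there. Members, lists and the rule for named genes (all members; in each list up to 3 called genes per direction, by size; Axin2 and Sftpc) were chosen with earlier results of these data known. Sftpc did not pass (adjusted p = 0.324). Erythroid markers (4 of 10 measured) gave 0 calls in limma, at an adjusted or unadjusted p under 0.05. Alternatives changed the scaling (median centring, quantiles), the genes (above the 25th or 50th percentile, probe sets averaged or each tested), the model (replicate number as block, array weights, robust trended variances), the threshold (0.01) and the arrays (each left out in turn).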

Additional observations from a re-analysis of the deposited data

Results flagged for a closer look

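A value was singled out when the gap between it and the nearest array of its group was over 0.71 of the group's whole range, Dixon's critical value for 5 samples. This was asked of 76 groups of 5 values (37 members and their mean, in both populations), and chance alone gives about 1 in 20. It held for 3.

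E2f2 stood out in both populations. It was at 8.50 in SP-C+ replicate 3, against 7.40 to 7.57 in the other SP-C+ arrays, and at 6.82 in Axin2+ replicate 1, against 7.31 to 7.38 in the other Axin2+ arrays. Uhrf1 was at 7.41 in Axin2+ replicate 5, against 7.76 to 7.86 in the rest of that group, in the array that was the lowest of its group for 32 of the 37 members.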

How the results depend on the processing

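The count of 27 members that rose stayed between 23 and 28 under the other normalizations, filters, probe set rules and variance models, and was 21 at an adjusted p under 0.01. It ran from 24 to 28 when 1 array was left out, and was 12 without SP-C+ replicates 1, 2 and 3. With the replicate block it was 23. Over all genes same-numbered arrays did not deviate together (correlations of -0.23 to 0.01). For single members the block narrowed some standard errors (Ccne1 from 0.15 to 0.09) and widened others (Mcm5 from 0.32 to 0.36). The labels do not state what the numbers stand for, and a shared batch was not tested. Other replication genes higher in Axin2+ arrays, 16, numbered 4 with the replicate block, 9 with each array centred on its median, 9 with all probe sets, 3 at an adjusted p under 0.01, 8 to 18 without 1 array and 2 without SP-C+ replicates 1, 2 and 3. In each of these limma fits 0 members fell.

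Of the members that did not pass, 3 changed sign, all in fits where they again did not pass. Mcm10 (-0.02) was at 0.39 without SP-C+ replicates 1, 2 and 3, and between -0.15 and 0.0937 without 1 array. Fen1 (-0.06) was at 0.21 as the mean over probe sets, 0.005 without SP-C+ replicates 4 and 5, and between -0.13 and 0.0366 without 1 array. Ccne1 (0.01) was at -0.0789 with median centring, -0.0788 with quantile normalization, -0.0060 with array weights, -0.18 without SP-C+ replicates 4 and 5, and between -0.0765 and 0.0899 without 1 array. The cause was not tested. Filters at the 25th and 50th percentile kept 37 and 32 members.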

Other observations

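Some genes outside the 39 also set the groups apart. Polk, a polymerase that copies past damaged bases, measured 7.43, 7.63, 7.84, 7.56 and 7.76 in SP-C+ and 8.49, 8.27, 8.37, 8.54 and 8.42 in Axin2+ arrays, a difference of 0.77 ± 0.09 (adjusted p = 5.91e-05) and of 0.76 without SP-C+ replicates 1, 2 and 3. It was one of the pair that rose among 19 enzymes outside chromosomal replication; the other, Polq, a polymerase of end joining, rose by 0.89 ± 0.21 and did not pass without those replicates (adjusted p = 0.224). Skp2, named after its values were seen, which marks the CDK inhibitor p27 for destruction, was at 7.52 to 7.83 in SP-C+ and 8.08 to 8.44 in Axin2+ arrays (0.59 ± 0.10, adjusted p = 9.22e-04). Ccna1, a cyclin A best known from the testis, was at 5.47 to 5.91 and 6.43 to 7.21 and differed by 0.87 without SP-C+ replicates 1, 2 and 3 (adjusted p = 0.0172).

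Among ciliated cell markers, Ccno, a cyclin-like gene of centriole amplification, was the 1 that was lower in Axin2+ arrays (-0.75, adjusted p = 7.71e-05), while Foxj1, a master gene of motile cilia that was also named after its values were seen, rose by 2.10.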
